A study of Mus musculus with 10 samples.

Results

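Of 13444 autosomal CpG-island regions measured in the mouse brain, 2185 (16.3%) had a MeDIP log2 ratio below the array median on all 10 arrays, and these regions are described here. MeDIP-chip pulls down DNA fragments that carry 5-methylcytosine with an antibody and compares them with the input DNA of the same sample on a microarray. A region was a run of at least 3 probes on 1 autosome whose starts lay at most 500 bp apart. Its level on an array was the mean over its probes of the log2 ratio of immunoprecipitated (Cy5) over input (Cy3) signal, after the array median had been set to 0. A region was a member if this level was below 0 on every array. The regions were therefore chosen by the measured ratios of all 10 arrays, and their levels are given as a description with no test.

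CpG islands are DNA segments with a high density of CpG dinucleotides, and many of them cover promoters. In mammalian tissues most CpG islands carry little DNA methylation, while islands of germline genes, of imprinted loci and of the inactive X chromosome are known exceptions. The MeDIP antibody needs several methylated cytosines on a fragment, so its yield depends on CpG density as well as on methylation.

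The DNA came from left hemibrains of male C57BL/6j mice, an inbred strain, that received 1 of 3 diets from 3 weeks of age for 24 weeks. The enriched diet (ERD) was measured on 4 arrays and had n-3 and n-6 polyunsaturated fatty acids at 7:1. The balanced diet (BLD), on 3 arrays, had them at 1:1, and the standard laboratory diet (STD), also on 3 arrays, at 1:6. The diets were matched in calories. No genotype other than the strain is labelled. The sample identifiers are not said to be single animals, so the p-values reflect sample-to-sample spread that may be technical. All 10 titles end in the word CONTROL, so that word does not tell the diets apart. A hemibrain is a mixture of cell types, and a level shared by all cells cannot be told apart from one that differs between cell types.

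The arrays differed in spread and were not balanced over slides. The interquartile range of log2 ratios over probes was 0.71 ± 0.08 in ERD (SD, n = 4), 0.61 ± 0.20 in BLD (SD, n = 3) and 0.47 ± 0.08 in STD (SD, n = 3). ERD shared no slide with the other diets, so slide and diet cannot be told apart for ERD. BLD replicate 3 and STD replicate 1 shared a slide, the only such pair. STD replicate 3 had the lowest share of probes well above background, 76.4%, against 78.9% to 94.7% on the other arrays. The number of arrays limits the precision of every value below.

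The name under which these regions were picked calls them unmethylated, and the data at hand do not measure that. Every array had its own median set to 0, no fully methylated or unmethylated standard was used here, and a level below 0 says only that less DNA was immunoprecipitated than at the median probe of the array. Background treatment also matters: with normexp background correction 72 autosomal regions were below 0 on all arrays, of which 47 were among the 2185. On STD replicate 3 the levels after that correction had a correlation of -6.5e-05 with the levels before it, and on ERD replicate 4 the correlation was 0.91 (across regions of 1 array, which are not independent). They are therefore called regions below the array median.

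The 2185 regions held 15807 of the 83154 probes in autosomal regions. They had a median of 7 probes (interquartile range 5 to 9, range 3 to 30), against 5 in the autosomal regions that were not below the median on all arrays. Their median length was 805 bp, against 617 bp, and together they covered 1972 kb of the mm9 build. The median of their mean levels over the 10 arrays was -0.29, with quartiles of -0.37 and -0.22 and a range of -0.98 to -0.04. The regions outside the set had a median of -0.01, and the 1099 regions (8.17%) above the array median on all arrays had a median of 0.45. The median within-diet SD was 0.13 log2 units in the members, against 0.16 in the regions outside the set and 0.26 in the regions above on all arrays.

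The threshold cut through a continuous distribution. Being below 0 on all 10 arrays was the most frequent outcome, and a further 1598 regions were below 0 on 9 arrays. Just inside the threshold, a region of 6 probes at chr2:119979790-119980572 had a highest array value of -2.6e-05 and a mean of -0.29. Just outside it, a region of 11 probes at chr3:88018298-88019480 had a highest array value of 0.00012 and a mean of -0.16, and one of 8 probes at chr2:146909595-146911392 had 0.00025 and a mean of -0.28. The 5 regions nearest the threshold on the inside had means of -0.15 to -0.29, and the 5 nearest on the outside had means of -0.11 to -0.28, so the means of regions on the 2 sides overlapped. Single arrays decided many cases: STD replicate 3 alone held back 402 regions that were below 0 on the other 9 arrays and STD replicate 1 alone held back 340, whereas ERD replicate 4 held back 36.

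The level of the set differed between arrays. The median over the members was -0.33, -0.36, -0.33 and -0.33 on the ERD arrays, -0.34, -0.28 and -0.19 on the BLD arrays, and -0.20, -0.28 and -0.18 on the STD arrays. All ERD arrays lay below all STD arrays, and the BLD arrays spanned both. The means of these medians were -0.34 ± 0.01 in ERD (SD, n = 4), -0.27 ± 0.08 in BLD (SD, n = 3) and -0.22 ± 0.05 in STD (SD, n = 3). Divided by the interquartile range of the array's log2 ratios over probes, the medians were -0.48 ± 0.05 in ERD, -0.45 ± 0.05 in BLD and -0.46 ± 0.07 in STD (SD, same n), and the diets overlapped. Among the lowest 10% of regions on each array, 42.4% to 59.3% were members, with the lowest share on STD replicate 3.

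**Figure D1:**
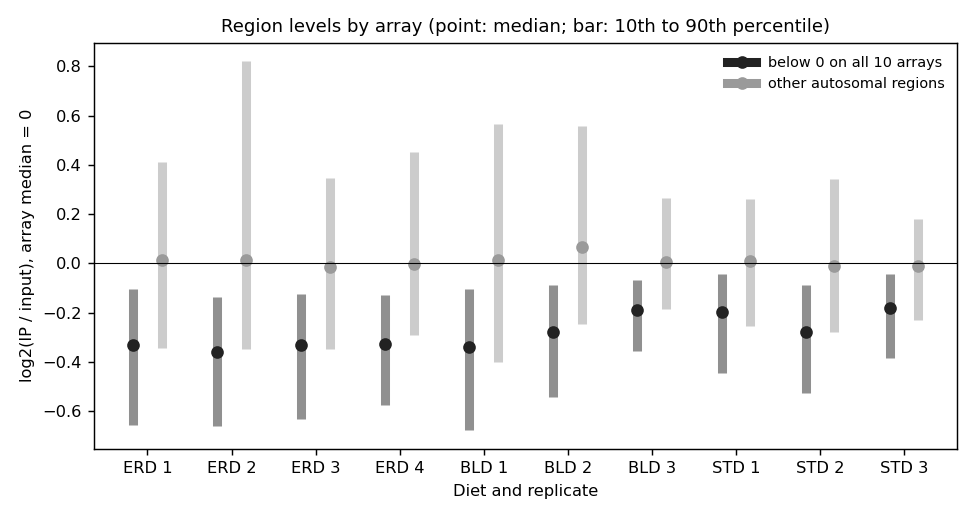
Level of autosomal regions on each array as log2(immunoprecipitated over input), with the array median at 0; points are medians and bars run from the 10th to the 90th percentile. Regions below 0 on all 10 arrays are in black and the other autosomal regions in grey; the black medians run from -0.36 on ERD replicate 2 to -0.18 on STD replicate 3, while the grey medians stay between -0.01 and 0.07.

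Regions chosen on the arrays of a pair of diets kept a low level on the third diet more often than all regions did, and least often on STD. Regions below 0 on every BLD and STD array numbered 2641, and 82.7% of them (95% Wilson interval 81.2% to 84.1%) were below 0 on all 4 ERD arrays, against 34.8% of all autosomal regions. Of the 2771 regions below 0 on every ERD and STD array, 78.9% (77.3% to 80.3%) were below 0 on all 3 BLD arrays, against 35.3% of all. Of the 3299 regions below 0 on every ERD and BLD array, 66.2% (64.6% to 67.8%) were below 0 on all 3 STD arrays, against 31.9% of all. In each case the regions that held were the same 2185 members. The 3 shares therefore differ only through the number chosen, and they support nothing about the set. The intervals cover counting error only, and regions of 1 genome on shared arrays are not independent. With a threshold of -0.1 in place of 0, the share was 80.5% for ERD, against 22.1% of all autosomal regions. It was 72.6% for BLD, against 18.8%, and 45.9% for STD, against 13.9%. Here too the same 780 regions held in each case. This threshold was not scaled to the spread of an array, which was on average lowest in STD, and its part was not tested.

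A low region mean did not mean that every probe was low. Of the probes in members, 76.2% had a mean below 0 over the arrays and 25.1% were below 0 on all 10, against 45.6% and 7.05% of the probes in regions outside the set. In 389 members (17.8%) every probe had a mean below 0, against 333 (2.96%) of the regions outside. The median difference between the highest and lowest probe of a region was 1.01 log2 units in members and 0.67 in the others.

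Probe length moved with the level. Members had 80.6% of their probes at 45 nt, the shortest length on the array, against 72.6% in the regions outside the set. Their 45-nt probes had a median level of -0.32, against -0.03 for such probes outside the set, and their 60-nt probes had a median of 0.26. When each array was centred within classes of probe length, 2197 regions were below 0 on all arrays, of which 1913 were among the 2185. The Cy3 input signal of member probes had a median of 0.05 log2 units relative to the array median, and that of probes outside the set -0.04, while the Cy5 signal was -0.22 in members and 0.02 outside. The share of spots well above background in Cy5 was 88.9% in members and 88.5% outside.

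The share of regions in the set grew with the number of probes. It was 8.15% among regions of 3 probes (174 of 2136), 14.4% at 5 probes, 21.8% at 7 and 28.5% at 11 to 12, and then 25.2% at 15 to 19 and 21.5% at 20 to 40. The median within-diet SD was 0.21 at 3 probes and 0.12 at 11 to 12, and the median level was 0.04 and -0.11. With only the 3 probes nearest the centre of each region, the share at 3 probes was the same 8.15% by construction. It was 21.7% at 5, 26.3% at 8, 23.2% at 11 to 12 and 14.7% at 15 to 19. With the 3 central probes the highest share was at 8 probes, whereas with arrays centred within probe lengths it was in the longest regions, at 31.2% for 20 to 40 probes against 24.7% for 8. The part of probe number in the choice was not otherwise tested.

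Within members of at least 7 probes the level was lowest at the centre. The median over probes was -0.35 within 100 bp of the centre, -0.34 at 100 to 200 bp, -0.30 at 200 to 300 bp, -0.23 at 300 to 400 bp and -0.15 at 400 to 600 bp. Regions of at least 7 probes outside the set had -0.06 within 100 bp and 0.06 at 400 to 600 bp. With 45-nt probes alone the gradient was smaller, with -0.37 at the centre and -0.24 at 400 to 600 bp in members, against -0.10 and -0.02 outside the set. Probes that lay outside any region but within 1 kb of a member had a median of 0.01 (91 probes), and those near regions outside the set had the same median (396 probes). The isolated probes nearest to members were therefore not low.

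**Figure D2:**
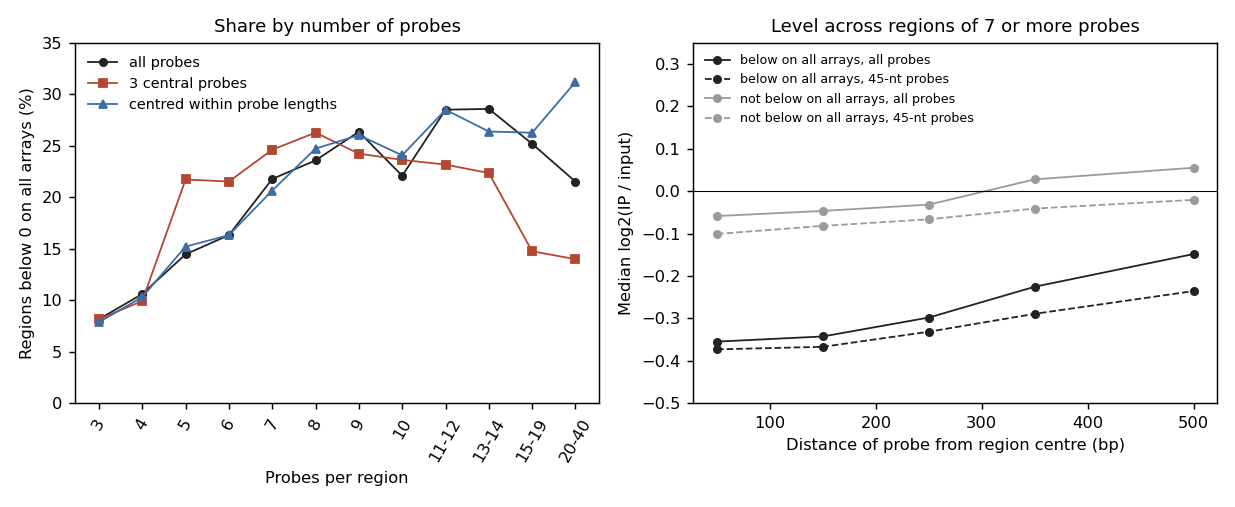
Left, share of autosomal regions below 0 on all 10 arrays (%) by number of probes per region, with all probes, with the 3 central probes and after centring within probe lengths. Right, median log2 ratio over probes by distance from the region centre (bp) in regions of 7 or more probes; members are at -0.35 within 100 bp of the centre and at -0.15 at 400 to 600 bp, and 45-nt probes alone show a smaller change.

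The members were spread over all autosomes. Their share ran from 11.5% on chromosome 7 (115 of 1002 regions) and 13.3% on chromosome 15 to 18.3% on chromosome 9 and 19.1% on chromosome 3 (115 of 601). On the X chromosome, which the rule leaves out, 23 of 385 regions (5.97%) were below 0 on all arrays. All samples are male and carry a single X. After a member, the next region was a member in 11.4% of pairs at most 2 kb apart, against 12.4% after a region outside the set, and in 17.1% against 16.6% at 10 to 50 kb. At 2 to 10 kb it was 18.8% (38 of 202 pairs) against 10.2%. Most members, 1476, had no member as a direct neighbour, and the longest run held 5 members in a row at chr17:64212529-66122182, with means of -0.26 to -0.47.

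The lowest regions varied by array. By the mean of the 3 diet means, the lowest was at -0.95, the second at -0.83 and the last of the 10 lowest at -0.70. A member outside these, chr6:13019691-13020168, was at -0.63. The lowest was chr6:124779297-124779662, a region of 3 probes. It measured -1.36, -1.11, -1.68 and -1.04 on the ERD arrays, -0.77, -0.89 and -0.78 on the BLD arrays, and -0.83, -0.82 and -0.55 on the STD arrays. All ERD arrays were below all BLD and STD arrays, which overlapped each other. Its 3 probes did not share the level: the first had a mean of -1.42 over the arrays, the middle one -1.18 and the last -0.35.

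The region of 5 probes at chr11:68859134-68859680 was the second lowest. It measured -1.21, -0.87, -0.90 and -0.69 in ERD, -0.68, -0.67 and -0.70 in BLD, and -1.11, -0.81 and -0.78 in STD, so the ERD and STD arrays overlapped. The region chr9:123626490-123626917, also among the 10 lowest, measured -1.19, -0.63, -1.10 and -0.75 in ERD, -0.66, -0.94 and -0.65 in BLD, and -1.07, -0.58 and -0.07 in STD, the widest range in STD. The region chr14:27457424-27458155 was the steadiest of the 10 lowest, with an SD over arrays of 0.07. It measured -0.80, -0.78, -0.72 and -0.72 in ERD, -0.77, -0.74 and -0.74 in BLD, and -0.69, -0.56 and -0.65 in STD.

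**Figure D3:**
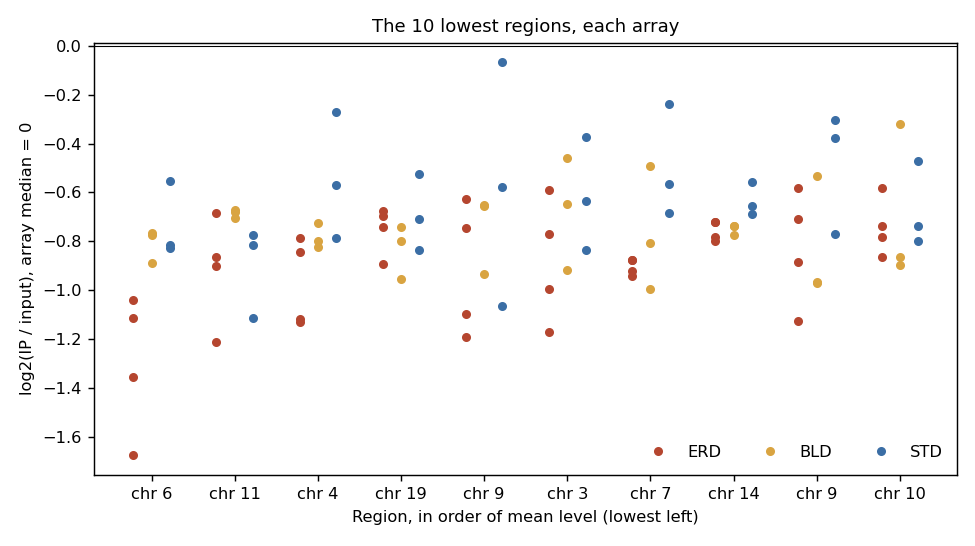
The 10 members with the lowest mean of the 3 diet means, from left to right, with log2(immunoprecipitated over input) on each array as a point coloured by diet. All points are below 0 by the rule; the chromosome 14 region has the tightest points, and the right-hand point group of the first chromosome 9 region reaches -0.07.

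The 5 members with the most probes had means of -0.31 to -0.13, nearer the array median than the 10 lowest. The median over all members was -0.29. The 30-probe region at chr1:180457448-180461093 measured -0.53, -0.60, -0.34 and -0.31 in ERD, -0.16, -0.17 and -0.25 in BLD, and -0.24, -0.27 and -0.19 in STD. All ERD arrays lay below all BLD and STD arrays. Of its 30 probes, 23 had a mean below 0 and 7 were below 0 on all arrays, with probe means from -1.06 to 0.48. The other 30-probe region, chr1:88421464-88425252, measured -0.39, -0.30, -0.31 and -0.43 in ERD, -0.31, -0.24 and -0.31 in BLD, and -0.21, -0.18 and -0.18 in STD.

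The 5 members with the smallest SD had means of -0.04 to -0.20. The smallest SD over the 10 arrays, 0.03, belonged to the 8-probe region chr12:106574883-106575801, which was close to the median throughout, with a mean of -0.04. The largest, 0.41, belonged to the 5-probe region chr15:87455649-87456203. It measured -0.30, -0.23, -0.24 and -0.37 in ERD, -1.35, -0.81 and -0.06 in BLD, and -0.06, -0.12 and -0.10 in STD. The lowest arrays were BLD replicates 1 and 2, while BLD replicate 3 was at the level of STD.

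Across members, arrays of 1 diet agreed only loosely on which regions were lower. The mean correlation between pairs of arrays over the 2185 members was 0.46 within ERD (6 pairs), 0.42 within BLD (3 pairs), 0.30 within STD (3 pairs) and 0.26 between ERD and STD (12 pairs). Over the autosomal regions outside the set, these were 0.66, 0.70, 0.34 and 0.41 in the same order. These correlations share probes and their base composition, the rule narrows the range of the members, and no p is given.

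The diets were compared by limma over all 13835 regions, and the counts of members are set beside those of all regions. The rule used the same arrays: a region above the median on any array of any diet could not be a member, so the counts describe the set and support nothing about it. Between ERD and STD, 363 members (16.6%) differed at an unadjusted p under 0.05, against 15.7% of all regions. Of these, 351 were lower in ERD (16.1%, against 8.02% of all regions) and 12 were higher (0.549%, against 7.68%). None passed Benjamini-Hochberg adjustment, with a lowest adjusted p of 0.0602, and none of all regions did (0%). The median difference over members was -0.11 log2 units, against 0.00 over all regions, and 81.0% of members had a lower mean in ERD, against 49.4% of all regions.

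The split between lower and higher depended on the processing. With all arrays scaled to 1 interquartile range the set itself stayed the same. There 116 members were lower in ERD at the unadjusted threshold (5.31%, against 5.50% of all regions). A further 94 were higher (4.30%, against 7.96%). The median difference over members was then -0.00, against 0.03 over all regions. With normexp background correction, 25 were lower (1.14%, against 2.92%) and 103 higher (4.71%, against 5.80%). Of all members 36.9% were then lower in ERD, against 35.5% of all regions. The direction stayed with quantile normalization, with 224 lower (10.3%, against 7.44%) and 32 higher (1.46%, against 7.15%). There 67.5% of all members were lower in ERD, against 49.9% of all regions. It also stayed with loess, with 308 lower (14.1%, against 7.31%) and 21 higher (0.961%, against 9.02%). All 4 ERD arrays lay below all 3 STD arrays in 429 members (19.6%, against 9.01% of all regions) and above them in 13 (0.595%, against 7.24%). Without STD replicate 3, 209 members differed in place of 363. The cause of these changes was not tested.

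Between BLD and STD, 157 members (7.19%) differed at an unadjusted p under 0.05, against 11.2% of all regions. Of these, 120 were lower in BLD (5.49%, against 3.89%) and 37 higher (1.69%, against 7.31%). The lowest limma adjusted p of any member was 0.44. On the shared slide, BLD replicate 3 minus STD replicate 1 had a median of 0.01 over members and 0.02 over all regions. Of the members 47.9% were lower in BLD replicate 3, against 46.2% of all regions. This is 1 pair of arrays, with interquartile ranges of 0.38 in BLD replicate 3 and 0.51 in STD replicate 1. Over all arrays the median difference over members was -0.05, against 0.03 over all regions. The mean was lower in BLD in 64.4% of members, against 43.3% of all regions. The count depended on single arrays. With STD replicate 3 left out, 41 members were lower and 44 higher. With BLD replicate 1 left out 28 were lower and 19 higher, with BLD replicate 2 left out 54 and 21, and with BLD replicate 3 left out 287 and 33. Shares of all regions in these fits are not given, so the counts describe the members only. With arrays scaled to 1 spread, 78 members were lower (3.57%, against 3.89% of all regions) and 112 higher (5.13%, against 9.64%). With normexp background correction 7 were lower (0.320%, against 2.75%) and 24 higher (1.10%, against 0.846%). Quantile normalization gave 207 lower (9.47%, against 6.87% of all regions) and 32 higher (1.46%, against 7.34%). Probes well above background only gave 255 lower and 7 higher among the 1649 members that kept a value. The share of all regions in that setting is not given.

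Between ERD and BLD, 220 members (10.1%) differed at an unadjusted p under 0.05, against 10.2% of all regions. Of these, 203 were lower in ERD (9.29%, against 6.71%) and 17 higher (0.778%, against 3.48%). The lowest limma adjusted p was 0.422. With arrays scaled to 1 spread, 59 were lower and 37 higher, and with normexp background correction none differed. With quantile normalization the direction turned among members and among all regions. There 47 members were lower (2.15%, against 3.56% of all regions) and 65 higher (2.97%, against 4.39%). The median difference was 0.005 over members and -0.004 over all regions. Without BLD replicate 3, 101 members were lower and 85 higher, and the share of all regions in that fit is not given.

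**Figure D4:**
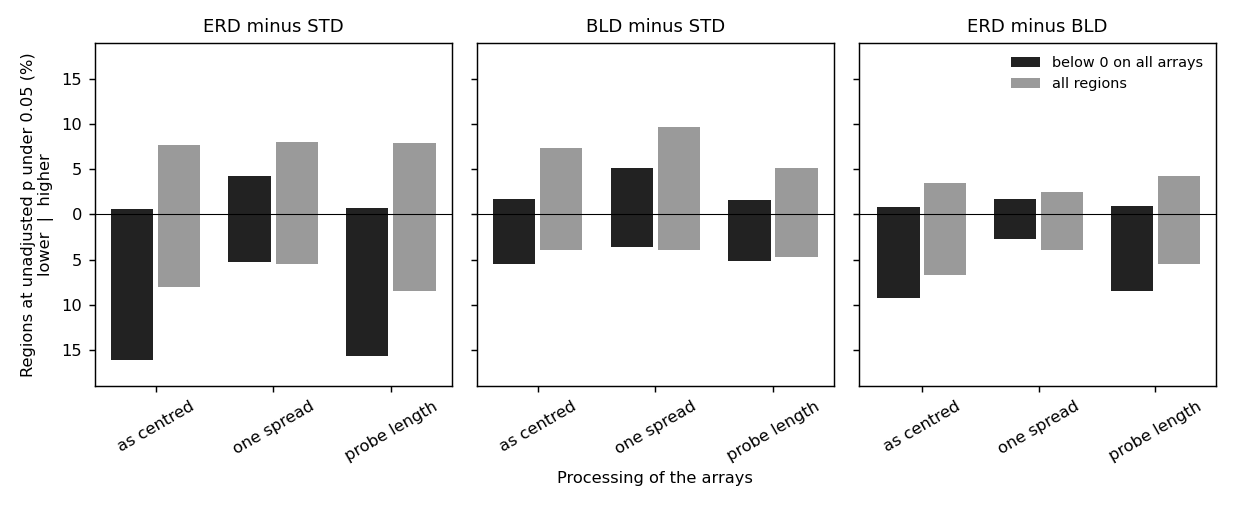
Share of regions (%) at an unadjusted limma p under 0.05 that were higher (above 0) or lower (below 0) in each diet comparison, for the members in black and all 13835 regions in grey, with arrays centred only, scaled to one spread, or centred within probe lengths. For ERD minus STD the members stand at 16.1% lower and 0.549% higher as centred, and at 5.31% lower and 4.30% higher after scaling to one spread.

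The regions named here have the lowest p among members whose direction held without each array in turn. Of the 62 regions named by any rule, 26 had at least 1 probe whose Cy5 signal was not well above background on every array of a diet; such a probe gives only a bound there and was kept in the region mean. By unadjusted p, the first region for ERD minus STD was the 4-probe region chr14:27354098-27354556, in the same run of 4 neighbouring members as the steady low region on chromosome 14. It measured -0.78, -0.83, -0.75 and -0.84 in ERD, against -0.22, -0.27 and -0.27 in STD, with no overlap between the diets. The BLD arrays were at -0.65, -0.78 and -0.65. The difference of ERD minus STD was -0.55 ± 0.08 (SE; limma adjusted p = 0.0602), and that of BLD minus STD was -0.44 ± 0.09 (SE; limma adjusted p = 0.44). With normexp background correction the direction turned, to 0.16 in both comparisons.

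The 7-probe region chr7:126863687-126864351 measured -0.75, -0.91, -1.21 and -0.72 in ERD, against -0.31, -0.11 and -0.16 in STD. The 6-probe region chr5:3596035-3596756 measured -0.58, -0.73, -0.84 and -0.61 in ERD, against -0.15, -0.05 and -0.14 in STD. The 8-probe region chr12:111829407-111830263 measured -0.91, -0.71, -1.04 and -0.82 in ERD, against -0.36, -0.18 and -0.41 in STD. In all 3 the ERD arrays lay below every STD array, with limma adjusted p-values of 0.137, 0.137 and 0.156. The chromosome 7 difference also turned with normexp background correction, to 0.02.

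Members that were higher in ERD had smaller differences. The 3-probe region chr19:32560062-32560329 measured -0.03, -0.24, -0.05 and -0.19 in ERD, against -0.27, -0.75 and -0.69 in STD. Its ERD arrays lay above every STD array, and its difference was 0.44 ± 0.12 (SE; limma adjusted p = 0.181). The 6-probe region chr2:37307588-37308131 measured -0.01, -0.07, -0.11 and -0.28 in ERD, against -0.44, -0.35 and -0.38 in STD, again without overlap (limma adjusted p = 0.21). Both channels were well above background at 100% of its spots in ERD and 72.2% in STD.

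The 3-probe region chr6:83299323-83299741 was higher in BLD, at -0.02, -0.12 and -0.16, against -0.58, -0.64 and -0.37 in STD. The 4-probe region chr17:33102830-33103261 measured -0.07, -0.21 and -0.28 in BLD, against -1.09, -0.47 and -0.75 in STD. It turned to -0.16 with normexp background correction. Both channels were well above background at 100% of its spots in BLD and 50% in STD. The 4-probe region chr4:123594342-123594853 was lower in BLD, at -0.81, -0.64 and -0.53, against -0.15, -0.32 and -0.26 in STD. It turned to 0.04 with normexp, and its shares of such spots were 91.7% in BLD and 58.3% in STD. In both regions the second probe had no Cy5 signal well above background in STD. Neither these regions nor any other member passed adjustment between BLD and STD.

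The smallest spread within diets among the named regions was at the 4-probe region chr8:87604137-87604561. It measured -0.46, -0.45, -0.46 and -0.46 in ERD, against -0.07, -0.10 and -0.09 in BLD, while STD was at -0.31, -0.32 and -0.33. The 3 diets did not overlap, the order of the means did not follow the fatty acid ratio, and ERD minus BLD was -0.37 ± 0.08 (SE; limma adjusted p = 0.422). Both channels were well above background at 100% of its spots in ERD and in BLD, and at 41.7% in STD. The 9-probe region chr17:80112664-80113555 measured -0.62, -0.59, -0.67 and -0.48 in ERD, against -0.03, -0.32 and -0.08 in BLD. Its STD arrays were at -0.31, -0.46 and -0.37. Both channels were well above background at 91.7% of its spots in ERD, 100% in BLD and 70.4% in STD.

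Over the fatty acid ratio as a numeric term, 367 members (16.8%) had a slope at an unadjusted p under 0.05, against 15% of all regions. Of these, 359 had a lower level at a higher n-3 share (16.4%, against 7.94%) and 8 a higher level (0.366%, against 7.09%). With arrays scaled to 1 spread, 116 members had a lower level at a higher n-3 share (5.31%, against 5.24% of all regions). In that setting 81 had a higher level (3.71%, against 6.37%). With normexp background correction the direction turned, with 21 lower (0.961%, against 2.02%) and 113 higher (5.17%, against 6.96%). With quantile normalization it stayed, with 197 lower (9.02%, against 6.60%) and 32 higher (1.46%, against 6.17%). The diet means stood in the order ERD below BLD below STD in 822 members (37.6%, against 18.6% of all regions). After adjustment 1 member (0.0458%) passed, against 0.0434% of all regions (6 of 13835).

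That member was the 6-probe region chr2:109120716-109121366, whose level fell with the n-3 to n-6 ratio. It measured -0.92, -0.96, -0.82 and -0.80 in ERD, -0.72, -0.60 and -0.38 in BLD, and -0.26, -0.24 and -0.04 in STD. The 3 diets did not overlap. The slope was -0.13 ± 0.02 log2 units per doubling of the ratio (SE; limma adjusted p = 0.0439), and ERD minus STD was -0.70 ± 0.11 (SE; limma adjusted p = 0.0602). Without 1 array in turn the slope stayed between -0.13 and -0.12, but its adjusted p ran from 0.0419 to 0.252 and was under 0.05 only without BLD replicate 1. Over the 12 other processing settings the slope was -0.18 to -0.04, and it passed adjustment in 5 of them. It did not pass with the slide as a random block (adjusted p = 0.0827) or with arrays scaled to 1 spread (adjusted p = 0.167).

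The 6 probes of the chromosome 2 region did not move alike. The first probe was above 0 on 9 of the 10 arrays, with means of 0.23 in ERD, 0.23 in BLD and 0.07 in STD. The second averaged -1.70 in ERD, -0.99 in BLD and -0.78 in STD, and the fourth -1.71, -1.27 and -0.58 in the same order. The third was above 0 in all STD arrays, with a mean of 0.37, against -0.49 in ERD and -0.64 in BLD. Both channels of this probe were well above background on only 2 of the 10 arrays, and its Cy5 signal on no BLD array, so its BLD value is only a bound and its other values rest mostly on dim spots. The last probe was left out on BLD replicate 3, where its spot was marked as an outlier. Both channels were well above background at 54.2% of the region's spots in ERD, 61.1% in BLD and 77.8% in STD, so dim spots moved with the level; their part in the slope was not tested.

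**Figure D5:**
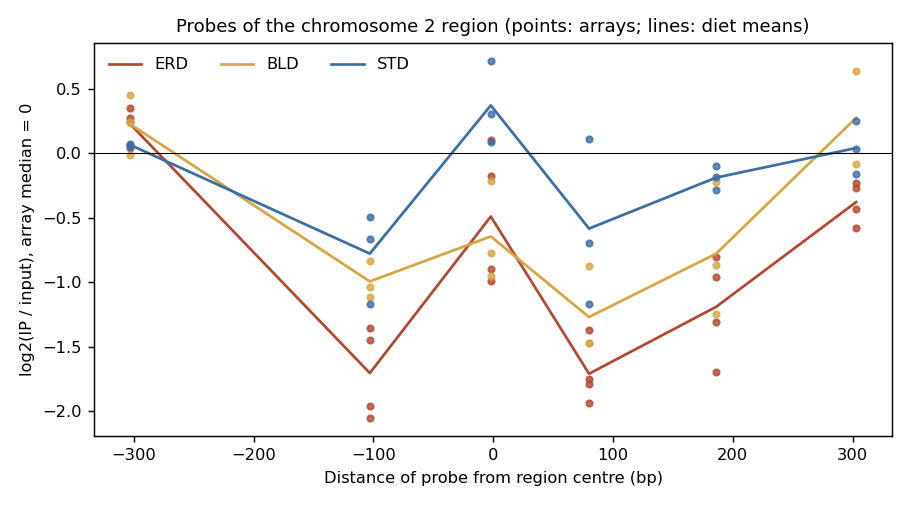
Probes of the chromosome 2 region by distance from its centre (bp), with log2(immunoprecipitated over input) on each array as points and diet means as lines. All ERD arrays lie below all STD arrays at probes 2, 4 and 5 from the left and at the last probe. BLD overlaps at least one of them there. The diet means at probe 2 are -1.70 in ERD and -0.78 in STD, and at probe 1 they are 0.23 and 0.07.

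By unadjusted p, the next named regions were those on chromosomes 7, 14, 5 and 12 above, with slopes of -0.13 ± 0.02, -0.10 ± 0.02, -0.10 ± 0.02 and -0.11 ± 0.02 log2 units per doubling (SE; limma adjusted p = 0.115 each). The 3-probe region chr6:13019691-13020168, named for its large SD, had a steeper slope of -0.14 ± 0.03 with the same adjusted p. Both channels were well above background at 75% of its spots in ERD, 100% in BLD and 44.4% in STD. None of its probes was so on all arrays. The chromosome 2, 14 and 5 regions were also among the 5 named as lower in BLD than in STD; the comparisons share the STD arrays.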

How the data were processed

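MeDIP DNA (Cy5) and input DNA (Cy3) of 10 left hemibrain samples were hybridised to an Agilent array of mouse CpG islands with 88737 non-control probes, with no dye swap, per the labels. Per the file headers, the deposited processed intensity had its background subtracted and its dyes balanced by 1 linear factor, without lowess, in Agilent Feature Extraction 10.7.3.1; version 9.0 stands in the submitters' processing notes. The deposited log10 ratio is that of Cy5 over Cy3, and the series value table holds the same ratio with a largest difference of 0.00498. Flags for spots (other codes) were deposited by the authors and used as given. Probe positions are on mm9, per the file headers. The genome and probe sequences of that build were not used here, so no gene is named, no sequence is shown and the planned gene lists and motifs were not tested.

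The log2 ratio was computed from the deposited processed intensities. Spots marked as outliers were left out, saturated spots were kept, and each array was centred on its median. All 13835 regions and 10 arrays entered 1 fit for the diets (limma 3.58.1, R 4.3.3), p-values were adjusted by the Benjamini-Hochberg method, and an adjusted p under 0.05 was called. A second fit used log2 of the n-3 to n-6 ratio. On simulated data with 200 regions changed by 1 log2 unit between ERD and STD, 181 of them and 9 unchanged regions passed among 13835. The noise was normal, independent between regions and arrays, and had no slide effect. The largest ERD minus STD difference of a named region was -0.74, so this recovery does not apply to the differences reported here. The summary tables and figures were made with Python 3.11.15, pandas 2.3.3 and matplotlib 3.10.9.

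The members, lists and rules were chosen with earlier results of these data known. Regions were named by rule: the 10 lowest, the 5 with most probes, 5 on either side of the threshold, the 5 with the smallest and the 5 with the largest SD, and per diet comparison and for the trend the 5 higher and the 5 lower with the lowest p whose direction held without each array. Alternatives included normexp (offset 50) for the background, quantile or loess normalization, ratios from the series value table, arrays brought to one spread, probes well above background only, other region definitions, the slide as a random block, array weights, single diet pairs and each array left out. The 3 central probes and centring within probe lengths were added after the data were seen.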

Additional observations from a re-analysis of the deposited data

Results flagged for a closer look

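Among 66 groups of 4 ERD values tested, that is the 62 named regions and 4 measures with 1 value per array, 3 had a sample far from the others by Dixon's ratio of gap to range at its critical value of 0.829. Chance alone marks about 5% of groups. In chr10:53470634-53471353, ERD replicate 4 was at -0.32 and the other ERD arrays at -0.09, -0.08 and -0.09, a ratio of 0.939. In chr3:108365105-108365480, ERD replicate 2 was at -0.25 and the others at -0.54, -0.51 and -0.57, a ratio of 0.840. In chr8:87604137-87604561, ERD replicate 2 was at -0.45 and the others at -0.46, a ratio of 0.857 within a range of under 0.02 log2 units. The groups of BLD and STD, with 3 arrays each, were not tested.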

How the results depend on the processing

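The number of regions below 0 on all arrays was 72 with normexp background correction, 1274 with the median of probes, 780 below -0.1 and 389 with every probe below 0, and between 2221 and 2587 without 1 array. The share of held-out regions at -0.1 was 80.5% for ERD, 72.6% for BLD and 45.9% for STD. Among all autosomal regions it was 22.1%, 18.8% and 13.9% in the same order. The counts that follow are of members. Shares of all regions under scaling, normexp and quantile normalization stand with each comparison above. For fits without 1 array they are not given. With probes well above background only, 1649 members kept a value. Members at an unadjusted p under 0.05 in ERD minus STD numbered 128 with normexp and 210 with arrays scaled to one spread, in BLD minus STD 31 with normexp, 239 with quantile normalization, 262 with probes well above background only, 237 with the median of probes and 240 with 3 central probes, in ERD minus BLD 0 with normexp, 112 with quantile normalization and 96 with scaling, and over the trend 134, 229 and 197 with the same 3 settings. Without 1 array in turn they ran from 209 to 392, from 47 to 320, from 154 to 233 and from 237 to 423 in these comparisons; the lowest trend count was without STD replicate 3. After adjustment, ERD minus STD had 1 member with quantile normalization, 1 with regions of 5 or more probes, 2 with array weights and 2 with 3 central probes. The trend had 0 with normexp, loess, quantile normalization, scaling, the median of probes and the slide as a random block, 2 with 3 central probes, and 0 to 1 without 1 array, with 1 only without BLD replicate 1. With normexp, ERD minus STD turned to 0.16 at chr14:27354098-27354556 and 0.023 at chr7:126863687-126864351. BLD minus STD turned to -0.16 at chr17:33102830-33103261, -0.10 at chr2:37307588-37308131, -0.20 at chr14:56254267-56254755, 0.16 at chr14:27354098-27354556, 0.040 at chr4:123594342-123594853 and 0.12 at chr14:122933384-122933868. The slope turned to -0.0030 at chr16:14361435-14361863, 0.0030 at chr7:126863687-126864351 and 0.028 at chr14:27354098-27354556. The cause was not tested. Of the other values of named regions, 872 kept their direction and side of the threshold, 16 lost the threshold and 6 gained it. Only the slope at chr2:109120716-109121366 passed in the main fit, so no other value could lose the threshold and all 16 belong to it. That slope passed in 1 of 10 fits without 1 array and in 5 of 12 other settings. No paired analysis was possible because the labels give no replicate numbers shared between diets. Signal near background limits the dim spots, most of all in STD replicate 3.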
